A study of Mus musculus with 1 sample.

Results

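The mRNAs of 10 genes were followed across single AMs (alveolar macrophages, the macrophages of the airspaces of the lung): the galectins Lgals1 and Lgals3, the S100 genes S100a1, S100a4, S100a6, S100a10 and S100a11, the annexins Anxa1 and Anxa2, and Crip1. The genes were chosen by name with earlier results of these data known, and all 10 were among the 11918 genes listed for the library. The cells came from 1 adult mouse of the WT group, labelled wild-type and 8 to 12 weeks old, on an FVB/NJ background backcrossed to C57BL/6 for over 10 generations. The paper states fewer generations of backcrossing for its cross of Hdac3 fl/fl and Csf1r Cre mice. Both Hdac3 alleles of this mouse were floxed (Hdac3 fl/fl) and no Cre was present, so the histone deacetylase HDAC3 was not deleted. AMs were sorted as CD45+CD11c+Siglec-F+ cells, 5000 were loaded, and 3' ends of mRNAs were sequenced with unique molecular identifiers (UMIs), in which each UMI stands for 1 captured mRNA molecule. A library from a Cre-carrying mouse, whose driver the sources give as either Csf1r or Cd11c, was not used here. A single library has no replicate, so no test was made, and all intervals are 95% exact intervals that cover counting error only.

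The library held 2055 cells with 7222978 UMIs, between 1143 and 8603 per cell with a median of 3278, and no cell barcode occurred more than once. In a cell of median depth, 1 UMI is 3.05 UMIs per 10000. Because every mRNA was counted by its 3' end, levels are given as UMIs per 10000 UMIs without division by transcript length, and a level near or under that of 1 UMI per cell describes the pooled cells rather than any one of them. The labelled cell type was checked against 12 AM marker genes (among them Marco, Siglecf, Pparg, Car4 and Ear2), all of which were listed. Every cell held at least 3 UMIs of these markers, which together made up 224 UMIs per 10000. Most of these were of Chil3 (136 per 10000), found in every cell, while Marco, Siglecf and Pparg were found in 46.9%, 41.4% and 31.7%. A cell with 940 UMIs of the plasma cell gene Jchain also met this minimum, so meeting it does not show that a cell is an AM. No cell class lacking the 10 genes was present to give a background from free RNA, so low shares of cells with a UMI are not read as expression.

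Galectins are lectins that bind beta-galactosides on glycoproteins, and they leave the cell without a signal peptide. S100 proteins are small EF-hand proteins, most of which change shape on binding calcium and then grip a target protein, while annexins bind negatively charged phospholipids when calcium is present. The families meet in complexes: S100A10, which has lost the ability to bind calcium, joins a pair of annexin A2 molecules at the plasma membrane, and S100A11 binds annexin A1. Crip1 encodes a small LIM-domain protein associated with the actin cytoskeleton. In macrophages, galectin-3 is known for roles in phagocytosis and membrane repair, and annexin A1 for its anti-inflammatory action through formyl peptide receptors.

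The 5 S100 genes lie on chromosome 3 of GRCm38 (mm10) in the annotation of GENCODE M21. S100a1 (chr3:90511034-90514392, minus strand) and S100a13 (chr3:90514435-90524581, plus strand) point away from each other with 42 bases between them. S100a4 (chr3:90603771-90606045) and S100a6 (chr3:90612882-90624181) lie 6836 bases apart on the plus strand, with S100a5, which was not listed, between them. S100a11 (chr3:93520488-93526287) and S100a10 (chr3:93555080-93564643) lie 28792 bases apart on the same strand with no other S100 gene between them. The remaining genes are on other chromosomes: Crip1 (chr12:113146316-113153879), Lgals3 (chr14:47367751-47386160), Lgals1 (chr15:78926725-78930465), Anxa2 (chr9:69453620-69491795), and Anxa1 (chr19:20373428-20390944, minus strand).

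Promoter sequences (250 bases before to 50 bases after the transcription start, GRCm38.p6, from RefSeq) matched 8 of the 10 genes by symbol, all but Lgals1 and S100a10. Those of S100a4, S100a6 and Crip1 are shown because these genes had the highest excess CVs across the cells and varied together, and that of S100a1 because it also spans the start of S100a13, which was evenly distributed. Capitals mark matches, on either strand, to TATAAA (the element bound by TBP), CCAAT (bound by NF-Y), GGGCGG (bound by Sp1), TGANTCA (AP-1), TGACNNNGC (the core of the antioxidant response element), GAGGAAGT (PU.1) or AGGTCA (the core site of nuclear receptors). The windows are chr3:90514281-90514580 (minus strand) for S100a1, chr3:90603520-90603819 for S100a4, chr3:90612644-90612943 for S100a6 and chr12:113151762-113152061 for Crip1, the last 3 on the plus strand. The Crip1 window lies inside the gene span given above, as the RefSeq start used differs from the GENCODE start of the gene.
S100a1: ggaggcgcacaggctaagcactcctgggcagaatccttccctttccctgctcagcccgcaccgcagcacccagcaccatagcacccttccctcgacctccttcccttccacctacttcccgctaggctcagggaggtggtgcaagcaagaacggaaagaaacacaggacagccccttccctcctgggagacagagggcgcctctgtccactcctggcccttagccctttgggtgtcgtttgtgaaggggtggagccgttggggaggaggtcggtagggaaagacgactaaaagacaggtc
S100a4: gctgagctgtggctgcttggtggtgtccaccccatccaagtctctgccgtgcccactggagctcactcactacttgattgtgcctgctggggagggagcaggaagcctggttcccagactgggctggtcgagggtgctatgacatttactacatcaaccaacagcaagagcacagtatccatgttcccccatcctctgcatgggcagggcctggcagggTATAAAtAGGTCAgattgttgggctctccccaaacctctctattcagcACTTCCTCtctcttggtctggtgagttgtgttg
S100a6: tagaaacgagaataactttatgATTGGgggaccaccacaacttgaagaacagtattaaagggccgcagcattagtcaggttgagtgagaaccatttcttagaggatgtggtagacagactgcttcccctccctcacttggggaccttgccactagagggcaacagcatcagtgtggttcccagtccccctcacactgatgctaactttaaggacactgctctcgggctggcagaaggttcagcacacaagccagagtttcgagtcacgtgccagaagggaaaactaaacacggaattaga
Crip1: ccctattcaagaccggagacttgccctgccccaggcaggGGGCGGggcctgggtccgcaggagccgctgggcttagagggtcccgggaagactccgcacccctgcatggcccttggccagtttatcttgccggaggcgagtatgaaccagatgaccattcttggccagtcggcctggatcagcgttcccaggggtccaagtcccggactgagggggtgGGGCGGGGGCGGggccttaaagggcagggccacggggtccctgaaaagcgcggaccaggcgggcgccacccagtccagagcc

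The promoters of the 3 genes that varied together shared none of these motifs. The S100a4 window held a TATA box beginning 31 bases before the start, a nuclear receptor core site beginning 24 bases before it, and a PU.1 site on the opposite strand after it. The S100a6 window held only a CCAAT box on the opposite strand, 228 bases before the start, and the Crip1 window held 3 GC boxes, beginning 211, 32 and 26 bases before it. No motif was found in the S100a1 window, and none of the printed matches overlapped another. The windows of S100a4 and S100a6 held 2 and 6 CpG dinucleotides, and that of Crip1 held 18, against a median of 7 over 32851 mouse promoters of the same length. Over all those promoters, TATAAA was found in 13.6%, CCAAT in 37.4%, GGGCGG in 35.7%, TGANTCA in 7.81%, TGACNNNGC in 12.4%, GAGGAAGT in 3.20% and AGGTCA in 16.3%. AP-1 sites were found in the windows of S100a11 and Anxa2, and TATA boxes in those of Anxa1 and Anxa2 as well as S100a4. Matches are descriptions of letters and not measured binding sites.

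The 10 genes together held 62142 UMIs, 0.860% of all UMIs (interval 0.854% to 0.867%). In single cells their share ran from 0.157% to 2.45%, with a median of 0.797%. Their levels were far apart, from genes found in nearly every AM to genes found in few.

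Lgals3, which encodes galectin-3, was the most abundant of the 10 and the 48th of all listed genes by level. It had 24.2 UMIs per 10000 (interval 23.8 to 24.5) and at least 1 UMI in 98.5% of cells. Single cells ran from 0 to 150 per 10000 with a median of 21.4, and the highest held 50 UMIs. Lgals1, which encodes the dimeric galectin-1, had 8.75 per 10000 (interval 8.53 to 8.97) and was found in 86.2% of cells, with a median of 7.73 and a highest value of 66.0 per 10000. Galectin-3 mRNA was therefore the more abundant of the pair by an amount well outside the counting intervals.

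Among the S100 genes, S100a11 was highest at 15.6 UMIs per 10000 (interval 15.3 to 15.9), in 94.2% of cells and with a cell median of 13.03. S100a10 followed at 8.75 (interval 8.53 to 8.97), in 85.9% of cells with a median of 7.59, a level that could not be told apart from that of Lgals1 (6318 against 6319 UMIs). S100a1, best known from heart and skeletal muscle, had 6.41 per 10000 (interval 6.23 to 6.60) and was found in 78.2% of cells with a median of 5.25. These 3 genes were thus common in AMs, whereas the other 2 were rare. S100a6, which encodes calcyclin, had 0.662 per 10000 (interval 0.604 to 0.724) in 9.54% of cells, with a cell median of 0 and a highest value of 43.5. S100a4, whose product binds non-muscle myosin, had only 78 UMIs in 63 cells, or 0.108 per 10000 (interval 0.0854 to 0.135). Of the 98-base sequences near the 3' end of S100a4, 48.3% also occur in transcripts of the annotated gene Gm42674, so its count is uncertain. The same share was 2.46% for S100a11, with Gm12854, and 0 for the other 8 genes.

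Anxa2, the partner of S100A10, had 13.4 UMIs per 10000 (interval 13.1 to 13.7) in 96.0% of cells, with a cell median of 12.6 and a highest value of 52.4. Anxa1 had 3.73 per 10000 (interval 3.59 to 3.87) in 62.7% of cells, with a median of 2.90 and a highest value of 27.6. Crip1 had a similar pooled level, 4.46 per 10000 (interval 4.30 to 4.61), but was found in only 43.0% of cells, with a median of 0 and a highest value of 91.5. The order of levels was Lgals3, S100a11, Anxa2, Lgals1 and S100a10, S100a1, Crip1, Anxa1, S100a6 and S100a4, and only the intervals of Lgals1 and S100a10 overlapped.

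**Figure D1:**
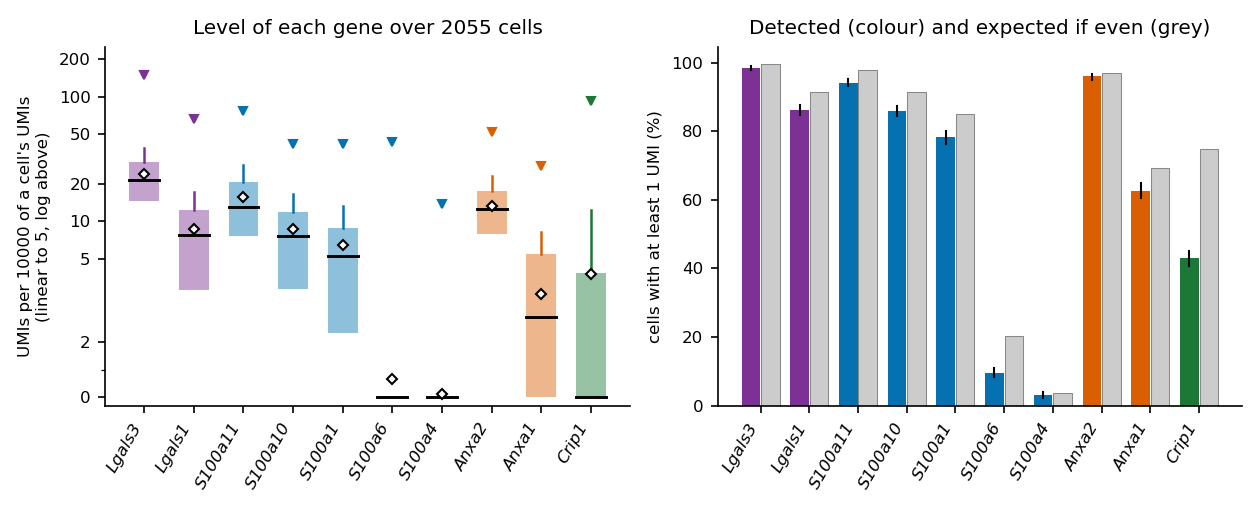
Left, UMIs per 10000 of each cell's UMIs for the 10 genes over 2055 cells (axis linear to 5 and logarithmic above), with the quartiles as boxes, the median as a line, the 90th percentile as the end of the thin line, the highest cell as a triangle and the pooled level as a diamond. Right, the percentage of cells with at least 1 UMI (colour, with 95% exact binomial intervals) beside the percentage expected if every cell gave the gene the same share of its UMIs (grey): Crip1 was found in 43.0% of cells against 74.9% expected, and S100a6 in 9.54% against 20.4%.

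Spread across cells was measured as the variance ratio, the variance of a gene's UMIs around an even share of every cell's total divided by the variance that counting alone gives, so that 1 is counting noise. All 10 genes had a ratio of at least 1.2. Of the 6066 genes with at least 0.05 UMIs per cell, 9.3% reached that ratio, and 9 of the 10 genes are among these 6066, the exception being S100a4. The comparison is uneven, because the ratio grows with level: of the 564 genes with at least 1 UMI per cell, 50.2% reached it, and 8 of the 10 genes are in that class. The median ratio was 1.57 for the 10 genes and 1.05 for the 6066. The excess coefficient of variation (CV), which is the spread left after counting noise is taken out and does not grow with level in this way, was also given for each gene. Its median was 0.4999 for the 10 genes and 0.367 for the 6066, and in the class with at least 1 UMI per cell it was 0.453 for the 8 genes and 0.278 for all 564.

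Crip1 and S100a6 had the highest variance ratios of the 10, and S100a6 and S100a4 the highest excess CVs. Crip1 had a variance ratio of 6.45, the 23rd highest of the 6066 genes, and an excess CV of 1.88, the 71st highest. It had no UMI in 1171 cells, 1 to 2 in 527, 3 to 9 in 286 and 10 or more in 71, where an even share would give 0.259 cells with 10 or more. The highest 5% of cells held 44.5% of all Crip1 UMIs. This share also depends on level, and was 16.7% for S100a13 (4.41 UMIs per 10000, ratio 1.01). S100a6 had a ratio of 4.53, ranked 39th, and an excess CV of 3.94, ranked 20th, and the highest 5% of cells held 80.5% of its UMIs. For Lgals8, at a like level (0.601 UMIs per 10000) with a ratio of 1.06, that share was 35.5%. Only 58 cells had 3 or more S100a6 UMIs, and they held 65.1% of them. S100a4 had an excess CV of 3.22 and a ratio of 1.27, but on 78 UMIs, with at most 4 in any cell, and its ratio without its highest cell was 1.19, under the limit.

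The abundant genes varied less, and by excess CV they ranked between 1672nd (Anxa1) and 3915th (Anxa2) of the 6066 genes. Lgals3 had a variance ratio of 2.33 and an excess CV of 0.397, and S100a11 a ratio of 2.17 and a CV of 0.467. Lgals1 (CV 0.438), S100a10 (0.433) and S100a1 (0.533) were in the same range with ratios of 1.59, 1.503 and 1.54. Anxa2 was the most even, with an excess CV of 0.261 and a ratio of 1.31, while Anxa1, at a lower level, had a CV of 0.560 and a ratio of 1.30. For Anxa2, 96.0% of cells had a UMI where an even share would give 96.9%, so its detection was close to even. With every cell thinned to 1801 UMIs, the ratios of Anxa1 (1.15), Anxa2 (1.15) and S100a4 (1.18) were under the limit of 1.2, and those of the other 7 genes were not.

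**Figure D2:**
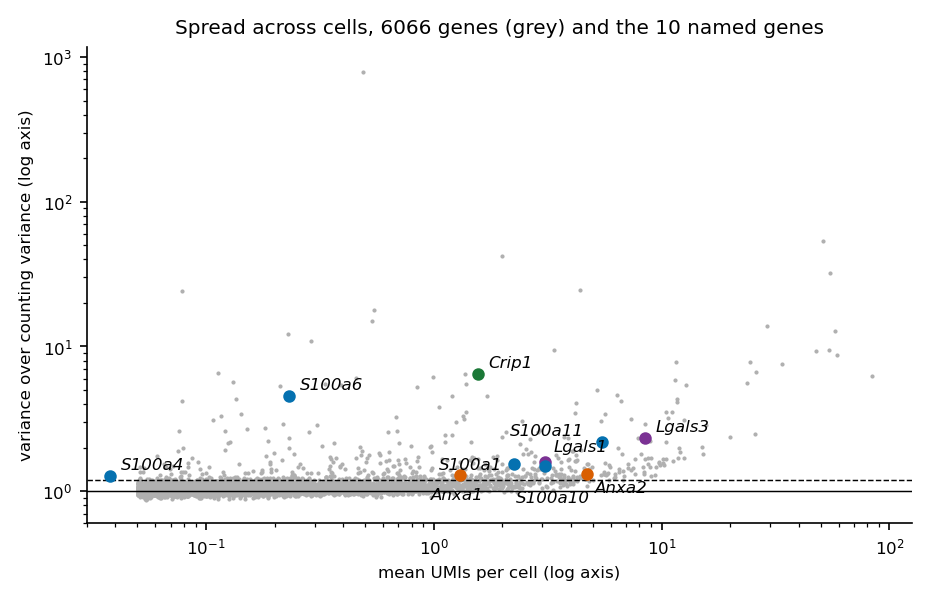
Variance over counting variance (log axis) against mean UMIs per cell (log axis) for the 6066 genes with at least 0.05 UMIs per cell (grey) and for the 10 genes (galectins purple, S100 genes blue, annexins orange, Crip1 green). The solid line is counting noise and the dashed line the ratio of 1.2. Crip1 at 6.45 and S100a6 at 4.53 stand above most genes of like level, while Anxa1 and Anxa2 lie just above the dashed line.

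The other genes of these families were compared in the same way, from lists that also hold binding partners and receptors. Of 50 such genes, 31 were listed and 20 had at least 0.05 UMIs per cell. Among all 6066 genes at that minimum 9.3% reached a ratio of 1.2, and among the 564 with at least 1 UMI per cell 50.2%. Of the 20, 6 reached it. None of the 2 other galectins so measured did (Lgals8 and Lgals9, with 0.601 and 0.282 UMIs per 10000). Of 6 other annexins, only Anxa5, which binds phosphatidylserine, did, with a ratio of 1.22 at 8.41 UMIs per 10000 (1.197 without its highest cell, under the limit), whereas Anxa4 at 2.37 had a ratio of 1.01. The 3 listed relatives of Crip1 (Crip2, Csrp1 and Csrp2) were below that minimum. Of the 2 other S100 genes, S100a8, a neutrophil calprotectin subunit, had a ratio of 4.34 at 0.385 per 10000 (1.26 without the 1 cell that held 23 of its 278 UMIs), and S100a13 a ratio of 1.01. In the partner list, 4 of 10 reached it: Vim (vimentin, 1.61), Plaur (the urokinase receptor, 1.596), Ahnak (which binds the complex of annexin A2 and S100A10, 1.27) and Fpr1 (a formyl peptide receptor, 1.22). Fpr2, through which annexin A1 acts, had a ratio of 1.13 at 2.04 UMIs per 10000, and Plgrkt, a plasminogen receptor, had 1.06.

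S100a1 and S100a13 gave the plainest contrast between neighbours. Their pooled levels were 6.41 and 4.41 UMIs per 10000, and the S100a1 promoter window printed above includes the first bases of S100a13. S100a13 had at least 1 UMI in 73.8% of cells, a ratio of 1.01 and an excess CV of 0.0672, against 1.54 and 0.533 for S100a1. The correlation between both genes across cells was 0.0440.

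Which genes varied together was measured as Pearson's r across the 2055 cells between residuals, the departures of each gene's UMIs from an even share of the cell's total in units of counting error. All cells share 1 library and differ in depth, so r is a description with no p. Of 45 pairs of the 10 genes, 17 had r of at least 0.1, no pair was negative, and r ran from 0.0181 to 0.417 with a median of 0.0805. Among the 9 genes with at least 0.2 UMIs per cell, 15 of 36 pairs reached 0.1, against 0.403% of the 3014740 pairs of all 2456 such genes. As r also depends on the level of a gene, the same was counted among genes of like level. Among the 564 genes with at least 1 UMI per cell, 4.6% of pairs reached 0.1, and so did 14 of the 28 pairs of the 8 genes in that class. Each of the 10 genes was in at least 1 of the 17 pairs. Counting noise lowers r, so r with that noise removed is given for the leading pairs.

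The neighbours S100a4 and S100a6 had the highest r, 0.417, or 0.909 with counting noise removed. The second value is uncertain, because it rests on the excess spread of S100a4, estimated from 78 UMIs with at most 4 in a cell. Of the 63 cells with an S100a4 UMI, 30 (47.6%, interval 34.9% to 60.6%) also had S100a6, against 8.33% of the other cells. Per 10000 UMIs, S100a6 had 5.54 in the cells with S100a4 and 0.472 in the others. The median totals of these cells were 4148 and 3247 UMIs, and the part of depth in the difference was not tested. Few cells carry this pair: without the 7 cells with at least 10 S100a6 UMIs, r was 0.320, and with every cell thinned to 1801 UMIs it was 0.176.

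Both genes also varied with Crip1, with r of 0.269 for S100a6 and 0.164 for S100a4. With cells thinned to 1801 UMIs, r was 0.218 for S100a6 and 0.0372 for S100a4, so the pair of S100a4 and Crip1 did not hold at that depth. Crip1 was found in 63.8% of the 196 cells with S100a6 and in 40.8% of the others, and in 74.6% of the cells with S100a4. In reverse, S100a6 had 0.362 UMIs per 10000 in the 1171 cells without Crip1 (interval 0.304 to 0.428), 0.472 in cells with 1 to 2 Crip1 UMIs, 1.205 in cells with 3 to 9 and 3.24 in the 71 cells with 10 or more (interval 2.66 to 3.91). S100a4 had 0.0456 per 10000 in the cells without Crip1 and 0.510 in those 71 cells (interval 0.297 to 0.816). S100a6 and S100a4 were thus higher in cells with much Crip1, though only 28.2% of the 71 cells had an S100a6 UMI.

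The more abundant genes followed Crip1 to a lesser degree. Between cells without Crip1 and the 71 cells with at least 10 UMIs, Anxa1 went from 3.42 to 5.88 UMIs per 10000, S100a10 from 7.88 to 11.6, S100a11 from 15.0 to 20.2, Lgals3 from 23.0 to 29.4 and Anxa2 from 12.9 to 15.1, each with intervals that did not overlap. The intervals overlapped for S100a1 (5.98 and 6.84) and for Lgals1 (8.56 and 9.02). Median totals were 2953 UMIs in the cells without Crip1 and 4251 in the 71 cells, and the part of depth in these differences was not tested.

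**Figure D3:**
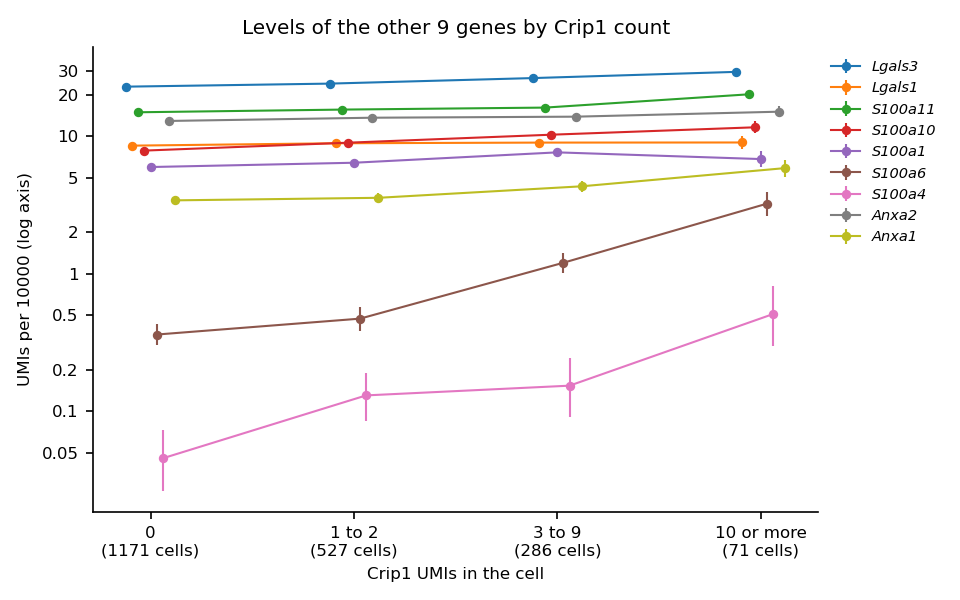
UMIs per 10000 (log axis) of the other 9 genes in cells grouped by their Crip1 UMIs, with 95% exact Poisson intervals. S100a6 goes from 0.362 to 3.24 and S100a4 from 0.0456 to 0.510 between cells without Crip1 and cells with 10 or more, while the line of Lgals1 is nearly level (8.56 to 9.02).

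Another set of pairs joined the abundant genes. S100a10 and S100a11 had r of 0.2499, or 0.522 with counting noise removed, and the galectins Lgals1 and Lgals3 had 0.219 and 0.453. Lgals3 also varied with S100a10 (0.211), S100a1 (0.199), Anxa1 (0.158), Anxa2 (0.117) and Crip1 (0.109). Thinned to 1801 UMIs, only 6 of the 17 pairs had r of at least 0.1: S100a6 with Crip1, S100a4 with S100a6, S100a10 with S100a11 (0.169), Lgals3 with S100a1 (0.158) and with Lgals1 (0.157), and S100a11 with Anxa1 (0.103). The others of Lgals3 were then between 0.0646 and 0.0994. The genes of known protein complexes were among the 17 pairs without leading them. S100a11 and Anxa1 had r of 0.159, S100a10 and Anxa2 had 0.115, and the crosswise pairs were similar, with 0.165 for S100a10 and Anxa1 and 0.161 for S100a11 and Anxa2. Thinned, S100a10 and Anxa2 had 0.0676 and the crosswise pairs 0.0739 and 0.0836. Without thinning, Lgals1 was the most isolated, with Lgals3 as its single partner at 0.1 or more and r between 0.0230 and 0.0738 with the other 8 genes. Thinned, Lgals1 kept that partner, whereas Anxa2 had none at 0.1 or more.

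**Figure D4:**
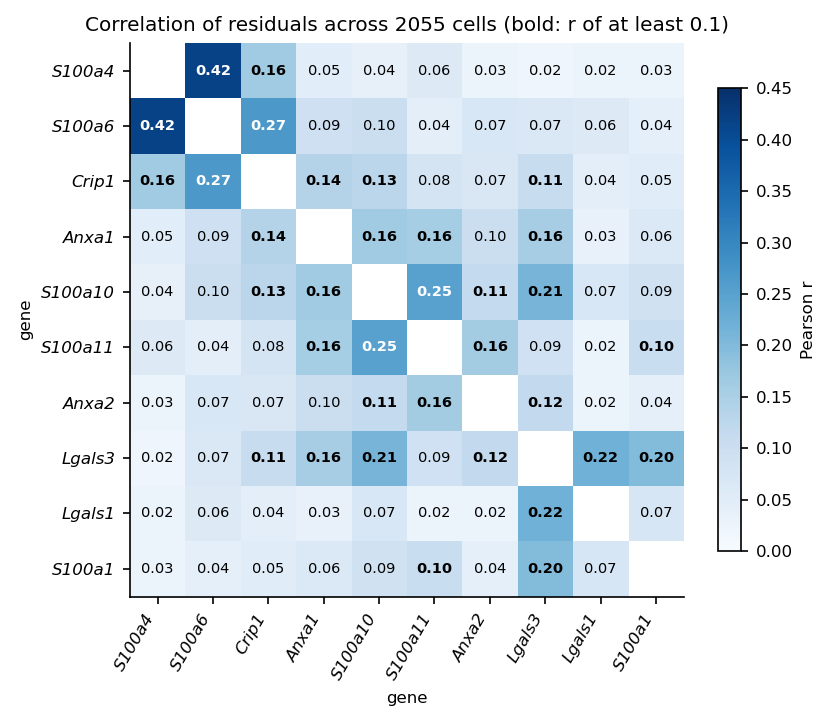
Pearson's r of residuals across 2055 cells for each pair of the 10 genes, with r of at least 0.1 in bold. S100a4, S100a6 and Crip1 form the block at the upper left (0.42, 0.27 and 0.16), and Lgals1 has a single bold value, 0.22 with Lgals3.

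Outside the 10 genes, those most alike to each were named by the highest r among genes with at least 0.2 UMIs per cell. Cd9, which encodes a tetraspanin of the plasma membrane, came first for Lgals3 (0.364), S100a10 (0.256), Anxa1 (0.209) and Lgals1 (0.194). For Lgals3 the next were Cstb (cystatin B, a cathepsin inhibitor, 0.300) and Anxa5 (0.271), and Cstb also led for S100a1 (0.201). S100a11 stood apart, led by the ribonuclease genes Ear2 (0.313) and Ear1 (0.272) and by Lyz2 (lysozyme, 0.276). Anxa2 was led by Pfn1 (profilin, 0.160) and Myl6 (a myosin light chain, 0.143), and Anxa1 was followed by Vim (0.184) after Cd9. The unevenly spread genes had other neighbours: Fn1 (fibronectin) for S100a6 (0.185) and S100a4 (0.136), and for Crip1 the tubulin-binding gene Tppp3 (0.275) and the MHC class II genes H2-Ab1 (0.239) and H2-Eb1 (0.229). For the summed residual of the 10 genes, the highest were Cd9 (0.345), Slpi (0.298) and Tppp3 (0.274), and the lowest were mt-Co1 (-0.181), Tpt1 (-0.172) and Rpl41 (-0.162).

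Levels were then compared between the 206 cells (10%) highest for each of 6 lists of other genes and the remaining 1849 cells. These are ranges of a score and not cell types, and 30 to 115 cells lay within 0.5 counting-error units of the limit of each. A gene was counted as higher in a range where its level was at least 25% above that of the rest and as lower where it was at least 20% below, beside the share of all genes with at least 0.2 UMIs per cell that did the same. S100a4 is below that minimum, so the share compares with counts among the other 9 genes.

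In the cells high for Ctsk, Cd63 and Wfdc17 (a cathepsin, a lysosomal tetraspanin and a secreted WAP-domain protein), 5 of the 10 genes were higher (4 of the 9, against 4.73% of all genes), and none was lower, against 11.8%. S100a6 had 1.89 UMIs per 10000 in these cells and 0.502 in the rest, a ratio of 3.75 (interval 3.08 to 4.56). The ratio was 2.83 for S100a4 (interval 1.63 to 4.74) and 2.07 for Crip1 (interval 1.90 to 2.26), which had 8.23 and 3.97 per 10000. S100a1 (1.33) and Lgals3 (1.29) were the other 2, and Anxa2 was even at 0.988. The median total was 3873.5 UMIs in these cells and 3233 in the rest, and the part of depth in the ratios was not tested. Without the 7 cells with at least 10 S100a6 UMIs, the ratio of S100a6 was 2.21. Ctsk, Cd63 and Wfdc17 had been grouped with Crip1 in earlier results of these data. Wfdc17 is also among the 3 genes most alike to S100a6 (r of 0.137). The counts and ratios in this range therefore depend on the choice of list and are not a finding apart from it.

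In the cells high for MHC class II genes, whose products present peptides to CD4+ T cells, 3 genes were higher (2 of the 9, against 2.9% of all genes), and none was lower, against 8.65%. They were S100a6 (1.45 against 0.564 per 10000, ratio 2.57, interval 2.07 to 3.18), S100a4 (ratio 1.91, interval 1.01 to 3.39) and Crip1 (7.43 against 4.09 per 10000, ratio 1.82, interval 1.66 to 1.99). The galectins and annexins had ratios between 0.996 and 1.05 in these cells. The median total was 3772.5 UMIs in these cells and 3237 in the rest. The MHC class II genes H2-Ab1 and H2-Eb1 are among the 3 genes most alike to Crip1 (r of 0.239 and 0.229). The ratio of Crip1 in this range is therefore not a finding apart from that correlation. S100a6 and S100a4 also varied with Crip1, so the 3 ratios are not separate findings.

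In the cells high for cell cycle genes, none of the 10 genes was higher, against 11.8% of all genes, and 2 were lower (2 of the 9, against 12.3%). These were S100a1 (5.23 against 6.57 per 10000, ratio 0.796, interval 0.721 to 0.878) and S100a6 (ratio 0.716, interval 0.509 to 0.985). The count is too small to be read against that share. The limit of this range was only 0.693 counting-error units above an even share of cell cycle UMIs. The range therefore also holds cells near an even share, and its ratios are not the levels in cycling cells. Anxa2 and Lgals3 had ratios of 0.833 and 0.839, and S100a10 one of 1.13 (interval 1.05 to 1.22). The cells high for chemokine and TNF genes had none of the 10 genes higher or lower, against 5.8% and 8.78% of all genes. In the cells high for immediate-early genes, none was higher (7.33% of all genes) and S100a6 alone was lower (6.43% of all genes), with a ratio of 0.738 whose interval, 0.518 to 1.03, includes 1.

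In the cells with the highest mitochondrial share, 5 genes were lower, against 22.1% of all genes, and none was higher, against 12.8%. The ratios were 0.706 for S100a10, 0.739 for Crip1, 0.748 for Lgals1, 0.759 for S100a1 and 0.7996 for Lgals3, while Anxa1 was at 0.968 and S100a6 at 1.18 (interval 0.848 to 1.595). These cells were shallower, with a median of 2421 UMIs against 3345, and in the library 384 cells (18.7%) had more than 5% mitochondrial UMIs. In the cells of at most 5%, the ratio for Crip1 turned to 1.12 and the other 4 lay between 0.896 and 0.962.

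**Figure D5:**
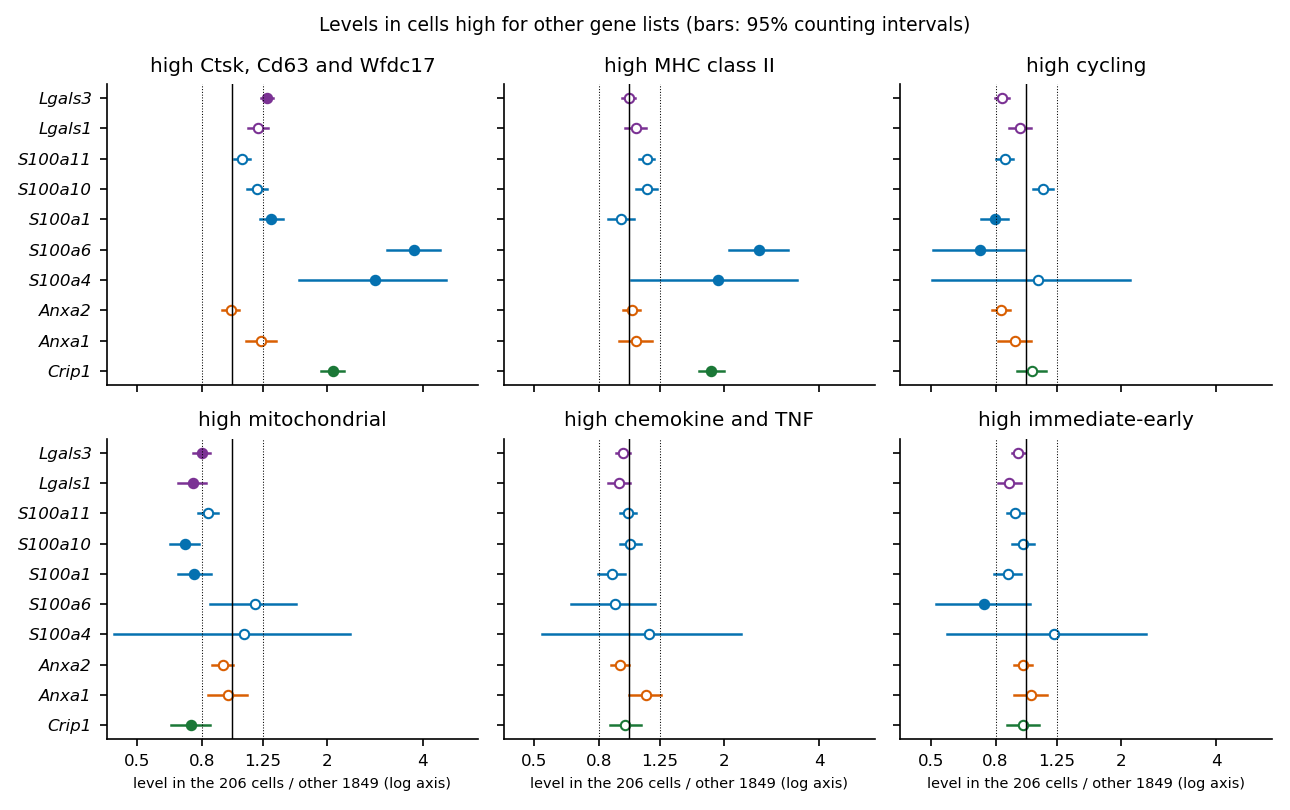
Level of each of the 10 genes in the 206 cells highest for a gene list, divided by its level in the other 1849 cells (log axis), for 6 lists; bars are 95% exact counting intervals, dotted lines mark 25% higher and 20% lower, and filled points lie beyond them. S100a6, S100a4 and Crip1 are high in the upper left and upper middle panels (3.75, 2.83 and 2.07, then 2.57, 1.91 and 1.82), and the chemokine and TNF panel has no filled point.

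Markers of other cell types were counted beside these results, since S100a4, S100a6 and Crip1 are also known from other leukocytes and epithelium. Of the neutrophil list, 3 of 5 genes were listed (not S100a9 or Retnlg), with 0.490 UMIs per 10000 in sum, and 14 cells had at least 3 UMIs. The monocyte list (4 of 7 listed, not Ly6c2, F13a1 or Ms4a4c) summed to 0.120 per 10000 with 4 such cells, the dendritic cell list (1 of 5, Ccr7 alone) to 0.0208 with 1 cell, and the B or plasma cell list (3 of 5) to 1.42 with 2 cells, of which 1 held 940 Jchain UMIs. None of the T or NK cell or eosinophil genes was listed, and no cell reached 3 UMIs of the endothelial and fibroblast list. In the neutrophil, monocyte, dendritic and B or plasma cells so marked, S100a6 had 3 UMIs in all, of 478, and S100a4 had 1, of 78. Crip1 was higher in the 14 neutrophil-marked cells, with 8.16 UMIs per 10000 against 4.42 in the rest (ratio 1.84, interval 1.37 to 2.42), and in the 2 B or plasma cells (ratio 3.02, interval 1.45 to 5.56). These cells held 1.62% and 0.311% of all Crip1 UMIs. S100a1 was also higher in the neutrophil-marked cells (ratio 1.92, interval 1.52 to 2.41). Their part in the results was not tested.

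The epithelial list was met more often, in 329 cells with at least 3 UMIs, and 85.4% of its UMIs were of Epcam, which had a UMI in 58.1% of all cells. S100a6 had 1.05 UMIs per 10000 in those 329 cells and 0.564 in the rest, a ratio of 1.85 (interval 1.52 to 2.25). With Epcam left out of the list, a choice made after seeing the data, 18 cells had at least 3 UMIs and held 1 UMI of S100a6 and none of S100a4, and in the 271 cells with at least 1 UMI the ratio for S100a6 was 0.629 (interval 0.458 to 0.847) and that for Crip1 0.678. In the 654 cells without any UMI of the other cell type lists, r was 0.431 for S100a4 and S100a6 and 0.187 for S100a6 and Crip1, and in the 1449 such cells with Epcam left out of the lists r was 0.503 and 0.282.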

How the data were processed

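AMs sorted from 1 Hdac3 fl/fl WT mouse were profiled with the 10x Genomics 3' kit (v2 chemistry, 98 bases of read 2). The authors counted UMIs on mm10 with Cell Ranger, and the values they deposited are the natural log of 1 plus each gene's UMIs per 10000 UMIs of the cell, made with Seurat per the labels. The authors also deposited scaled score values (log values after regression, centred and capped at 10), which were used here only as an alternative for correlations. The stated limits on genes per cell (a guard against doublets) held, with at most 2495 genes, but 384 cells exceeded the stated 5% of mitochondrial UMIs and 100 ribosomal protein genes were still listed. No doublet caller was run.

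UMI counts were recovered from the log values: within a tolerance of 0.01, 100% of the values were whole numbers of UMIs in their cell. No count model was fitted. Depth was 1143 to 8603 UMIs per cell. Intervals are exact (Poisson for levels, Clopper-Pearson for shares of cells, conditional binomial for ratios) at 95%, and cover counting error only. Variance ratios, residual correlations and cell ranges were computed as defined in the results, with Python 3.11.15, numpy 2.4.6, scipy 1.17.1 and pandas 2.3.3, and the steps were tested on simulated data. Residuals were Poisson residuals clipped at the square root of the number of cells. With a single library there are no replicates and no test. Gene positions came from GENCODE M21, and shared sequence was sought as 98-base sequences in the last 300 bases of each gene's transcripts.

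The 10 genes, the lists and the limits were chosen with earlier results of these data known. Genes named in the text are the 10, the other family and partner genes where their list is described, the 3 genes most correlated with each of the 10, the 10 highest and 5 lowest for their sum, and cell type markers. Alternatives changed the cells kept, the UMI total, the depth (thinning), the limits and the values correlated. Thinning was a single random draw, and the spread between draws was not measured.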

Additional observations from a re-analysis of the deposited data

How the results depend on the processing

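The summed share of the 10 genes (0.860%) was 0.880% in the 1671 cells with at most 5% mitochondrial UMIs, 0.842% in the 654 cells with no UMI of other cell type lists, 0.868% of a total without the 10 genes, and 0.831% as the mean of single-cell shares. The count of genes at a variance ratio of 1.2 or more was between 7 and 10 under all alternatives. The count of pairs at r of 0.1 or more (17) was 6 with cells thinned to 1801 UMIs (1850 cells), which lowers counts, evens depth and drops the shallow cells at once, and 10 with the deposited scaled scores. It was 32 at a limit of 0.05 and 5 at 0.2, and between 14 and 20 under the other alternatives. The count of genes higher or lower over the 6 cell ranges (16) was 27 in the 654 cells with no UMI of other cell type lists, where each range holds fewer cells, and between 11 and 23 otherwise.

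By single value, 94 of 100 variance ratios, 160 of 187 correlations and 102 of 128 range ratios kept their side of the limit. In each alternative the ranges were drawn anew among the cells kept. Crip1 in the mitochondrial range changed direction (1.12 with at most 5% mitochondrial UMIs), but that range holds none of the cells of the original one. S100a6 in the immediate-early range also did (1.098 in cells without other cell type UMIs, Epcam left out). The cause was not tested. Alternatives that leave out Epcam, the cells with at least 10 S100a6 UMIs or the highest cell of each gene were chosen after seeing the data. Depth limits S100a4 most, with 78 UMIs, and only differences far above 1 UMI per cell can be read in single cells. No paired analysis was possible because there is 1 sample. Differences between mice cannot be estimated.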

Other observations

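The levels per 10000 UMIs also went with the depth of the cells. In the 514 cells with the fewest UMIs (1143 to 2408) and in the 513 cells with the most (4382 to 8603), Lgals3 had 20.5 and 25.6, S100a11 had 12.5 and 17.3, S100a10 had 6.67 and 9.42, and Anxa1 had 2.79 and 4.37, in each case with intervals that did not overlap. Anxa2, which had the most even spread of the 10 genes, had 13.3 in the shallow cells and 13.5 in the deep cells, and S100a6 had 0.700 and 0.756. Crip1 had 3.53 and 4.83, S100a1 had 4.99 and 6.95, and Lgals1 had 7.63 and 8.99, also with intervals that did not overlap. S100a4 had 0.0418 and 0.136, with intervals that overlapped. These values are a description of 1 library, and their cause was not tested.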
